A study of Mus musculus with 4 samples.

Results

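The 9 genes described here encode scavenger receptors and other proteins of phagocytic uptake, namely Cd36, Msr1, Olr1, Cd68, Lrp1, Scarb2, Cd14, Cd47 and Sirpa. They were picked out by symbol, with earlier results of these data known, and they are 9 of the 19737 genes in a single-cell count matrix of 74758 sorted brain cells from 20 mice. The study asked how microglia respond to an antibody that activates TREM2, to amyloid pathology and to both together. ATV:4D9 joins the antibody 4D9, which activates mouse TREM2, to a transport vehicle that binds the transferrin receptor so that it can cross into the brain. 4D9 lacks that vehicle, and ATV:ISO carries it on an isotype control antibody. All mice were homozygous for TfRmu/hu, a transferrin receptor with the human sequence that the vehicle binds. WT;TfRmu/hu mice received ATV:ISO or ATV:4D9. AppSAA;TfRmu/hu mice were also homozygous for an App knock-in with familial Alzheimer's disease mutations and received ATV:ISO, 4D9 or ATV:4D9. These 5 groups held 4 mice each and are called WT ATV:ISO, WT ATV:4D9, AppSAA ATV:ISO, AppSAA 4D9 and AppSAA ATV:4D9 here. Every mouse was given a single IV dose of 10 mg/kg and was sampled 24 h later. The reporting summary has one entry for male mice aged 8 months that names WT, AppSAA and TfRmu/hu, and another for WT;TfRmu/hu mice of mixed sex aged 2 to 8 months, and it does not state which covers the WT mice. WT ATV:ISO replicate 4 was recorded as female and every other mouse as male. The isotype arm carries the label ATV-DNP02 in the cell annotation and was taken for ATV:ISO, a reading that rests on no deposited text.

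Scavenger receptors are surface proteins that bind modified lipoproteins, dying cells and protein aggregates and carry them into the cell. Cargo then passes through phagosomes and endosomes to the lysosome, whose membrane proteins take part in its breakdown. Engulfment is held back by signals on healthy cells, of which Cd47, read by the phagocyte receptor Sirpa, is the best known. In brain, microglia use these proteins to clear debris, lipids and amyloid.

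All 9 genes are annotated as protein-coding, and the positions of 8 of them on GRCm38 follow. Cd36 lies on chromosome 5 from 17781690 to 17888801, Msr1 on chromosome 8 from 39581685 to 39642673, Olr1 on chromosome 6 from 129485244 to 129507165, and Cd68 on chromosome 11 from 69664213 to 69666153. Lrp1 spans 127538161 to 127621148 on chromosome 10 and Scarb2 spans 92441314 to 92506833 on chromosome 5. Cd47 spans 49800533 to 49915010 on chromosome 16 and Sirpa spans 129592835 to 129632228 on chromosome 2. The promoters of Cd68 and Olr1 are shown because they alone, among the 6 genes with a RefSeq promoter used here, held any of 3 short motifs searched on both strands, and that of Cd36 because among the 9 genes it differed most between AppSAA ATV:4D9 and AppSAA ATV:ISO. Each is 300 bases of GRCm38.p6 from RefSeq, read 5′ to 3′ on the gene's own strand, with 250 bases before and 50 after the transcript start, at chr11:69666121-69666420 for Cd68, chr6:129507116-129507415 for Olr1 and chr5:17835847-17836146 for Cd36, all on the minus strand. Capitals mark GAGGAA (the core of PU.1 sites, TTCCTC on the other strand) and TGANTCA (AP-1).
Cd68: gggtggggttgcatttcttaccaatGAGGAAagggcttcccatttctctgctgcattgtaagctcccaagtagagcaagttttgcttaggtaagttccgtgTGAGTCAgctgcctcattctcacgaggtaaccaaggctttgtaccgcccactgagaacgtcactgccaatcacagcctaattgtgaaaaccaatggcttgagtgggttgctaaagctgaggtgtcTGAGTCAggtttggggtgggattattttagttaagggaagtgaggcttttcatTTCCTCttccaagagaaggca
Olr1: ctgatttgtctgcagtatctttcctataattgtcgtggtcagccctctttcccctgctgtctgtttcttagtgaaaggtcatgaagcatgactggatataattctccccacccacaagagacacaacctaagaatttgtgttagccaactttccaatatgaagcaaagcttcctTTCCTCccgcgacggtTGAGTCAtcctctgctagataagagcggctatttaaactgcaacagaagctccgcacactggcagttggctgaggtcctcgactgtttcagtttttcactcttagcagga
Cd36: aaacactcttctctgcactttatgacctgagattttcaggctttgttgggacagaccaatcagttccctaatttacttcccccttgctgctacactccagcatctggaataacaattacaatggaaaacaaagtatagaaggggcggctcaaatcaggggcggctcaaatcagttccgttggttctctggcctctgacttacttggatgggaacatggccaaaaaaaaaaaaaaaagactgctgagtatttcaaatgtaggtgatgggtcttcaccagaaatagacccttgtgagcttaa
The Cd68 promoter held 2 matches of each motif and the Olr1 promoter 1 of each, with no overlap between motifs. Over all 32851 promoters of that length, 28.3% held GAGGAA and 7.81% held TGANTCA. The third motif, CACGTG (the E-box of TFEB and related factors), was in 7.15% of all promoters and in none of the 6 genes. Cd36, Lrp1, Scarb2 and Cd47 had no match in these windows. The Cd36 window, the Scarb2 window (92505608 to 92505907) and the Cd47 windows (from 49855404 and 49855411) lie inside the gene spans above, away from their outer 5′ ends. The regions at those ends were not searched.

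UMIs were summed per mouse, which gave 17150296 to 102446549 UMIs and 2193 to 6126 cells a mouse. Median UMIs per cell were 6859 to 8173.5 in WT ATV:ISO and 8293 to 11552.5 in the AppSAA mice given ATV:ISO or 4D9, against 13479 to 17290 in the 2 groups given ATV:4D9. Cells were sorted as live CD11b+ cells, although one deposited text adds CD45 to the sort and the texts give the tissue either as cortex or as cortex with hippocampus. Across pools 1089 cells carried a barcode that also occurred in another pool, and within a pool 0 did. The mice were loaded in 4 pools with 1 mouse of each group in every pool, and a replicate number is the number of its pool. Summed CPM of 8 microglial markers was 23409 to 24528 in WT ATV:ISO and 13314 to 18577 in the other groups, and no microglial marker was at 0. Summed markers of endothelial and mural cells, which can also express Cd36, were 18.4 to 24.6 CPM in WT ATV:ISO, 9.64 to 13.3 in WT ATV:4D9, 37.5 to 52.3 in AppSAA ATV:ISO, 39 to 49.3 in AppSAA 4D9 and 13.3 to 26.1 in AppSAA ATV:4D9. Monocyte markers were 9.42 to 12.9 CPM in AppSAA ATV:4D9 and 3.88 to 9.94 elsewhere, and border macrophage markers were 11.9 to 39.2 over all groups. Fits without cells that held 2 or more markers of another type are given beside the calls of the 9 genes that were lost in them.

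The groups given ATV:4D9 had more Cd36 and Msr1 and less Sirpa than the isotype groups in both genotypes, relative to all other RNA of the same mice. Cd68, a protein of late endosomes and lysosomes, was 1.56-fold higher relative to other RNA with ATV:4D9 in WT mice. No such rise was called in AppSAA mice, whose isotype group stood above that of WT mice. UMIs of Cd68 per cell rose in both genotypes, from 5.5 to 15.5 in WT and from 11.7 to 14.9 in AppSAA mice. Relative to other RNA in whole mice, Cd47 moved in opposite directions in the 2 genotypes. With all cells its UMIs per cell rose in both. Without cells over 25000 UMIs the WT ratio of Cd47 was 1.11, with 3 of 4 pools above 1 and overlapping groups. 4D9 without the vehicle gave no call in any of the 9 genes. The threshold for a call was an adjusted p of 0.05 in edgeR's quasi-likelihood test over the 14058 genes that passed the filter on low counts, and all 9 genes passed it. ATV:4D9 against ATV:ISO in WT mice called 6 of the 9 genes, 3 higher and 3 lower, where 63.3% of all genes tested were called. The same comparison in AppSAA mice called 4 of 9 (3 higher, 1 lower) where 55.1% of all genes were called, and AppSAA against WT under ATV:ISO called 5 of 9 (4 higher, 1 lower with TMM factors) where 28.2% were. ATV:4D9 against 4D9 in AppSAA mice called 5 of 9 where 54.3% of all genes were called, and AppSAA against WT under ATV:4D9 called 4 of 9, all higher with TMM factors, where 11.8% were. The test of whether the ATV:4D9 effect differed between genotypes called 2 of 9, against 9.14% of all genes. The direction of these calls moved with the scaling. Under total-count scaling, which uses no TMM factors, AppSAA against WT called 2 higher and 3 lower under ATV:ISO and 3 higher and 1 lower under ATV:4D9. Of all 14058 genes that scaling called 1512 higher and 5275 lower under ATV:ISO, and 792 higher and 2201 lower under ATV:4D9. The share of higher genes among all called went from 51.2% to 22.3% and from 66.3% to 26.5%. ATV:4D9 in AppSAA mice then called 3 higher and 3 lower, both against ATV:ISO and against 4D9, and in WT mice again 3 and 3. Over all genes these fits called 3503 higher and 4272 lower, 3529 and 4085, and 3726 and 5390. With so many genes called in the ATV:4D9 comparisons, the counts of members called there lay near the background. With the pool as a replicate block, the counts became 8 for ATV:4D9 against ATV:ISO in AppSAA mice, where that fit called 70.7% of all genes, 7 for AppSAA against WT under ATV:4D9, where it called 31.4%, and 4 for the interaction, where it called 30.5%. The comparisons share groups of mice, so their values are given side by side and are not independent of each other.

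**Figure D1:**
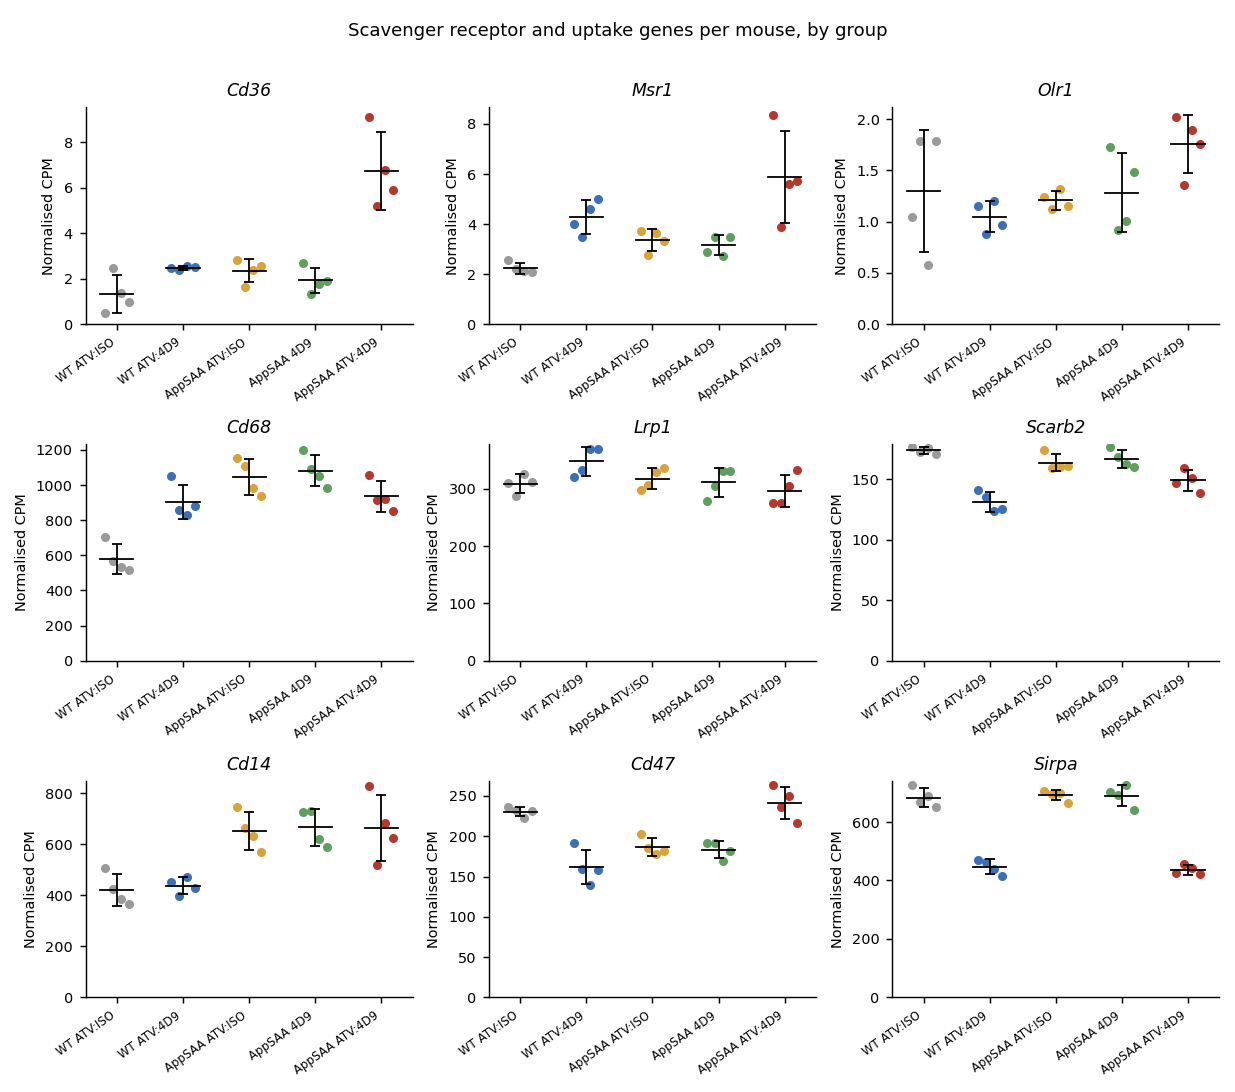
Normalised CPM (vertical axes, each from 0) of the 9 genes in every mouse (points) by group (horizontal axes), with the mean as a long line and the SD as bars, n = 4 mice a group. All 4 AppSAA ATV:4D9 mice lie above all other mice for Cd36, and all 8 mice given ATV:4D9 lie below the other 12 for Sirpa.

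Cd36, a class B scavenger receptor for oxidised lipoproteins, long-chain fatty acids and fibrillar amyloid, was scarce, with 9 to 631 UMIs a mouse. In normalised CPM, replicates 1 to 4 stood at 0.499, 2.47, 1.37 and 0.956 in WT ATV:ISO and at 2.46, 2.37, 2.56 and 2.5 in WT ATV:4D9. AppSAA replicates stood at 2.81, 1.65, 2.38 and 2.55 with ATV:ISO, at 2.69, 1.34, 1.75 and 1.91 with 4D9, and at 9.11, 5.19, 6.76 and 5.88 with ATV:4D9. The AppSAA ATV:4D9 mice overlapped no other group, while the other 4 groups overlapped each other, with WT ATV:ISO lowest in all but replicate 2. ATV:4D9 raised Cd36 by 1.52 log2 units in AppSAA mice (SE 0.26, adjusted p = 5.33e-05) and by 1.83 against 4D9 (adjusted p = 9.68e-06). In WT mice the rise was 0.90 (SE 0.30, adjusted p = 0.0132), seen in 3 of 4 pools, and the 2 groups overlapped through replicate 2 of WT ATV:ISO. That WT call was lost without WT ATV:ISO replicate 4, the mouse recorded as female (0.74, adjusted p = 0.0586), and was 1.36 without replicate 2. The difference between genotypes in the ATV:4D9 effect was not called (0.62, adjusted p = 0.403) and ran from 0.15, without WT ATV:ISO replicate 2, to 0.85, without WT ATV:ISO replicate 1. Under ATV:4D9 the AppSAA mice were 1.44 log2 units above WT (adjusted p = 0.000487). Under ATV:ISO the AppSAA rise of 0.82 (adjusted p = 0.0485) was lost in 13 of the 20 fits that left out 1 mouse, in which the adjusted p ran from 0.054 to 0.157. Those fits left out WT ATV:ISO replicate 1, 3 or 4, any WT ATV:4D9 mouse, AppSAA ATV:ISO replicate 1, 3 or 4, AppSAA 4D9 replicate 3 or 4, or AppSAA ATV:4D9 replicate 3. Without WT ATV:ISO replicate 2 it was 1.29 (adjusted p = 0.00274), without cells that held markers of another type 0.81 (adjusted p = 0.0703), and under total-count scaling 0.64 (adjusted p = 0.0845).

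Msr1, the class A scavenger receptor that takes up modified lipoproteins and binds amyloid, rose with ATV:4D9 in whole mice of both genotypes. Its 46 to 578 UMIs a mouse gave 2.55, 2.2, 2.12 and 2.07 normalised CPM in WT ATV:ISO and 4.01, 3.47, 4.62 and 5.01 in WT ATV:4D9. The AppSAA mice had 3.72, 2.75, 3.64 and 3.33 with ATV:ISO, 2.89, 3.48, 2.73 and 3.5 with 4D9, and 8.35, 3.88, 5.61 and 5.73 with ATV:4D9. WT ATV:ISO lay below all other mice, and each ATV:4D9 group lay above the isotype group of its genotype without overlap. The rise was 0.95 log2 units in WT mice (SE 0.19, adjusted p = 0.000267), 0.81 in AppSAA mice (SE 0.18, adjusted p = 0.000615) and 0.90 against 4D9 (adjusted p = 0.000269). AppSAA exceeded WT under ATV:ISO by 0.60 (adjusted p = 0.0277), a call lost without WT ATV:ISO replicate 2, 3 or 4 or AppSAA ATV:ISO replicate 1 or 3 (adjusted p 0.0566 to 0.0748), in limma voom (0.0957), without cells over 25000 UMIs (0.0699) and under total-count scaling (0.0713). Under ATV:4D9 the AppSAA value was 0.46 above WT and not called (adjusted p = 0.088), which the pool block called (adjusted p = 0.0253), as did leaving out AppSAA ATV:4D9 replicate 2 (0.62, 0.0121). Without AppSAA ATV:4D9 replicate 1 it was 0.25 (adjusted p = 0.358).

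Olr1, the lectin-like receptor for oxidised LDL, was the scarcest of the 9 with 13 to 176 UMIs a mouse. Group means were 1.3 ± 0.597 (SD, n = 4) normalised CPM in WT ATV:ISO, 1.05 ± 0.15 in WT ATV:4D9, 1.21 ± 0.091 in AppSAA ATV:ISO, 1.28 ± 0.384 in AppSAA 4D9 and 1.76 ± 0.286 in AppSAA ATV:4D9. Groups next to each other in level overlapped in every case. ATV:4D9 gave -0.34 log2 units in WT mice (95% interval -0.90 to 0.22, adjusted p = 0.271) and 0.54 in AppSAA mice (adjusted p = 0.0666), though the 2 AppSAA groups did not overlap. The AppSAA value was called with the pool block (0.51, adjusted p = 0.0418), by DESeq2 (0.0443), by limma voom (0.0404), and without WT ATV:ISO replicate 3 or AppSAA ATV:4D9 replicate 2 (0.0274 to 0.0417). Without WT ATV:ISO replicate 3, the lowest mouse, the WT value became -0.58 (adjusted p = 0.0351) and the difference between genotypes 1.12 (adjusted p = 0.0279), which with all mice was 0.88 (adjusted p = 0.146). Under ATV:4D9, AppSAA mice were 0.75 above WT without overlap (adjusted p = 0.0473), but 12 of the 20 fits without 1 mouse lost the call (adjusted p 0.0534 to 0.138), as did RLE factors (0.0506), no filter on low counts (0.0613), total-count scaling (0.0793), and leaving out cells over 25000 UMIs (0.169) or with markers of another type (0.0606). The 12 were any WT ATV:4D9 or AppSAA ATV:ISO mouse, AppSAA 4D9 replicate 4, and AppSAA ATV:4D9 replicates 1, 3 and 4.

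Cd68, or macrosialin, a heavily glycosylated protein of late endosomes and lysosomes that is widely used as a mark of phagocytic activity, had 517.3 to 1199 normalised CPM. Replicates 1 to 4 stood at 705.1, 569.1, 531.1 and 517.3 in WT ATV:ISO and at 1049, 859.4, 828.9 and 879.6 in WT ATV:4D9. With AppSAA they stood at 1154, 1109, 981.5 and 940.0 for ATV:ISO, at 1199, 1089, 1053 and 984.6 for 4D9, and at 1059, 912.6, 919.4 and 853.5 for ATV:4D9. Only the WT ATV:ISO mice were set apart, and the other 4 groups overlapped. ATV:4D9 raised Cd68 in WT mice by 0.64 log2 units (SE 0.11, adjusted p = 2.78e-05), and AppSAA exceeded WT under ATV:ISO by 0.85 (SE 0.11, adjusted p = 4.26e-06). In AppSAA mice ATV:4D9 gave -0.16 (95% interval -0.39 to 0.07, adjusted p = 0.21), so the effect differed between genotypes by -0.80 (SE 0.15, adjusted p = 0.00164), with that sign in 4 of 4 pools. The AppSAA value of -0.16 was called with the pool block (adjusted p = 0.00542), as was -0.21 against 4D9 (adjusted p = 0.000682, 0.104 without the block), and under total-count scaling both were called (-0.23, adjusted p = 0.00677, and -0.27, adjusted p = 0.00228). Against 4D9 it was also called without AppSAA ATV:4D9 replicate 1 (-0.27, adjusted p = 0.0491).

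Scarb2, or LIMP-2, the lysosomal membrane protein that carries glucocerebrosidase to the lysosome, fell relative to other RNA in WT mice given ATV:4D9. Its UMIs per cell rose there, from 1.66 to 2.25. Scarb2 stood at 176.2, 172.1, 175.8 and 170.6 normalised CPM in WT ATV:ISO and at 140.9, 135.2, 124.0 and 125.0 in WT ATV:4D9. In AppSAA mice it was 174.0, 159.5, 160.1 and 161.2 with ATV:ISO, 176.2, 168.4, 162.5 and 159.8 with 4D9, and 147.2, 159.5, 151.1 and 138.4 with ATV:4D9. The WT groups were far apart without overlap, while in AppSAA mice the highest ATV:4D9 value and the lowest ATV:ISO value nearly met, both 159.5 as rounded. The change was -0.40 log2 units in WT mice (SE 0.062, adjusted p = 1.15e-05) and -0.14 in AppSAA mice, which was not called (adjusted p = 0.0708) except with the pool block (0.00539), in DESeq2 (0.0326), under total-count scaling (-0.20, 0.00712) and without AppSAA ATV:4D9 replicate 2 (0.0369). Against 4D9 the change of -0.16 was called (adjusted p = 0.0333), but not without AppSAA 4D9 replicate 1 or 2 or AppSAA ATV:4D9 replicate 1, 3 or 4 (adjusted p 0.0521 to 0.175), without a filter on low counts (0.109), or without cells over 25000 UMIs (0.105). The difference between genotypes, 0.27 with an adjusted p of 0.0619, was called with the pool block (0.00163), in DESeq2 (0.0475), under total-count scaling (0.0208) and without WT ATV:4D9 replicate 1 (0.0428). Under ATV:4D9 the AppSAA value was 0.18 above WT (adjusted p = 0.0611), and the pool block called it (0.0018), as did DESeq2 (0.0259) and the fits without cells over 25000 UMIs (0.0448) or without WT ATV:4D9 replicate 1 or AppSAA ATV:4D9 replicate 4 (0.0374 to 0.044). Under ATV:ISO the genotypes differed by -0.09 (adjusted p = 0.332), and by -0.27 (adjusted p = 0.00129) under total-count scaling.

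Lrp1, a large endocytic receptor for apolipoprotein E, protease complexes and amyloid, had 274.7 to 369.4 normalised CPM over all mice and the smallest differences between groups. Its means were 309.0 ± 16.2, 347.6 ± 25.5, 317.6 ± 18.2, 311.2 ± 25.1 and 296.7 ± 27.8 (SD, n = 4) in WT ATV:ISO, WT ATV:4D9, AppSAA ATV:ISO, AppSAA 4D9 and AppSAA ATV:4D9, and groups next to each other in level overlapped. ATV:4D9 gave 0.17 log2 units in WT mice (adjusted p = 0.0705) and -0.10 in AppSAA mice (adjusted p = 0.315). Both were called with the pool block (adjusted p = 0.00104 and 0.0341), and the WT value also with RLE factors, without a filter on low counts, in DESeq2, and without WT ATV:4D9 replicate 1 or AppSAA ATV:4D9 replicate 4 (adjusted p 0.0148 to 0.0408). AppSAA mice under ATV:4D9 were at -0.23 against WT (adjusted p = 0.0709, 0.000281 with the block), which DESeq2 (0.0191), total-count scaling (-0.37, 0.0245) and the fits without cells over 25000 UMIs (0.0221), without cells with markers of another type (0.0489) and without WT ATV:4D9 replicate 1 or AppSAA ATV:4D9 replicate 4 (0.026 to 0.0493) also called. The difference between genotypes in the ATV:4D9 effect was -0.27 (adjusted p = 0.163, 0.00177 with the block and 0.0485 in DESeq2).

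Cd14, the co-receptor that hands lipopolysaccharide to Tlr4 and also binds dying cells and amyloid, differed between the genotypes in whole mice, where no effect of ATV:4D9 was called. In WT mice it stood at 506.3, 425.3, 386.8 and 365.2 normalised CPM with ATV:ISO and at 452.2, 398.8, 472.8 and 428.0 with ATV:4D9. AppSAA mice had 747.7, 665.5, 631.8 and 569.2 with ATV:ISO, 726.1, 731.0, 619.3 and 590.9 with 4D9, and 826.4, 519.4, 683.5 and 623.8 with ATV:4D9. Every AppSAA mouse lay above every WT mouse, and within each genotype the groups overlapped. AppSAA exceeded WT by 0.64 log2 units under ATV:ISO (SE 0.13, adjusted p = 0.000761) and by 0.60 under ATV:4D9 (SE 0.13, adjusted p = 0.00292). The effect of ATV:4D9 was 0.06 in WT mice (95% interval -0.21 to 0.33, adjusted p = 0.715) and 0.02 in AppSAA mice (95% interval -0.25 to 0.29, adjusted p = 0.903).

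Sirpa, the inhibitory receptor through which phagocytes read Cd47, fell with ATV:4D9 in both genotypes, relative to other RNA. Its UMIs per cell rose in WT mice from 6.53 to 7.66, a ratio of 1.17, or 1.07 without cells over 25000 UMIs. In AppSAA mice that ratio was 0.889, with overlapping groups. Normalised CPM was 726.5, 667.2, 687.7 and 651.1 in WT ATV:ISO and 470.9, 463.3, 438.0 and 416.9 in WT ATV:4D9. AppSAA mice had 704.5, 697.2, 700.0 and 665.4 with ATV:ISO, 701.1, 691.5, 725.8 and 641.9 with 4D9, and 425.5, 455.6, 442.3 and 420.9 with ATV:4D9. The 8 mice given ATV:4D9 lay between 416.9 and 470.9 and the other 12 between 641.9 and 726.5. The change was -0.61 log2 units in WT mice (SE 0.063, adjusted p = 5.48e-08), -0.67 in AppSAA mice (SE 0.063, adjusted p = 2.74e-08) and -0.66 against 4D9 (adjusted p = 2.98e-08). The 2 genotypes differed in this effect by -0.05 (95% interval -0.24 to 0.13, adjusted p = 0.785) and under ATV:ISO by 0.02 (adjusted p = 0.866), although total-count scaling turned the latter to -0.17 (adjusted p = 0.0396), under which the median of all genes also shifted by -0.18.

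Cd47, the ligand that tells phagocytes not to engulf the cell that bears it, moved in opposite directions with ATV:4D9 in whole mice of the 2 genotypes, relative to other RNA. It stood at 236.2, 232.3, 222.2 and 231.0 normalised CPM in WT ATV:ISO and at 191.1, 159.1, 139.5 and 158.5 in WT ATV:4D9. AppSAA mice had 203.2, 184.8, 177.9 and 181.5 with ATV:ISO, 191.9, 191.1, 169.5 and 181.5 with 4D9, and 263.0, 236.3, 249.6 and 216.8 with ATV:4D9. WT ATV:4D9 lay below WT ATV:ISO and AppSAA ATV:4D9 above AppSAA ATV:ISO, both without overlap. The changes were -0.51 log2 units in WT mice (SE 0.084, adjusted p = 2.63e-05) and 0.37 in AppSAA mice (SE 0.084, adjusted p = 0.000933), or 0.40 against 4D9 (adjusted p = 0.000517). Their difference was 0.88 (SE 0.12, adjusted p = 8.65e-05), with that sign in 4 of 4 pools. AppSAA against WT was -0.30 under ATV:ISO (adjusted p = 0.0101, -0.49 under total-count scaling) and 0.57 under ATV:4D9 (SE 0.084, adjusted p = 6.83e-05).

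4D9 without the vehicle called 0 of the 14058 genes in edgeR (0% of all genes) against ATV:ISO in AppSAA mice. There was 1 call in DESeq2, and there were 0 in limma voom and 0 with the pool as a replicate block. In edgeR 79 genes (0.562%) had an unadjusted p under 0.05. That share lies below the 0.05 expected where no gene differs, so p-values of this comparison ran high in the fit without the pool. The 9 genes ranged from -0.31 log2 units for Cd36 (95% interval -0.90 to 0.27) to 0.06, each with an adjusted p of 1. Between ATV:4D9 and 4D9, the largest difference among the 9 genes was that of Cd36, 1.83 log2 units, given above with its test.

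**Figure D2:**
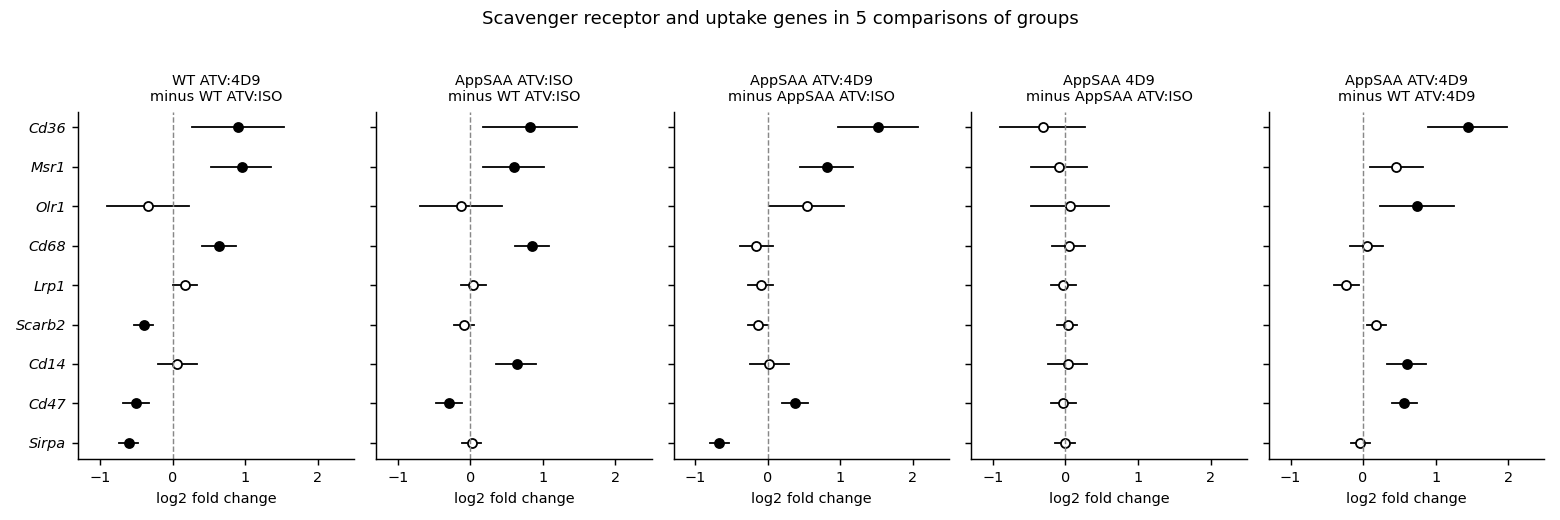
Log2 fold change (horizontal axes) of each gene (vertical axis) in 5 comparisons of groups, with the 95% interval as a line; filled points passed an adjusted p of 0.05 in edgeR and open points did not. Cd36 and Msr1 lie right of 0 and Sirpa left of 0 in both comparisons of ATV:4D9 with ATV:ISO, while Cd47 changes side, and every point for 4D9 is open.

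Fold changes of this kind scale each gene to the rest of the RNA in its mouse, and mean total UMIs per cell were 1.95-fold higher with ATV:4D9 than with ATV:ISO in WT mice and 1.49-fold higher in AppSAA mice. UMIs of each gene per cell, without rescaling, therefore gave another picture. Sirpa had 6.53 UMIs per cell in WT ATV:ISO and 7.66 in WT ATV:4D9, a ratio of 1.17 with 4 of 4 pools above 1, and 7.79 and 6.93 in the AppSAA groups, a ratio of 0.889 with 0 of 4 pools above 1. Cd47 went from 2.21 to 2.77 UMIs per cell in WT mice (ratio 1.25) and from 2.1 to 3.83 in AppSAA mice (ratio 1.83). Cd68 went from 5.5 to 15.5 (ratio 2.81) and from 11.7 to 14.9 (ratio 1.27). The ratios for Cd36 were 3.36 in WT and 4.03 in AppSAA mice, and for Msr1 3.51 and 2.47, above the ratio of all UMIs in both genotypes. Lower in WT mice than the ratio of all UMIs were Olr1 (1.44), Scarb2 (1.35), Cd14 (1.9), Cd47 and Sirpa. Lrp1 had ratios of 2.03 and 1.32, while in AppSAA mice Olr1, Scarb2 and Cd14 had 2.06, 1.28 and 1.45. With each cell thinned to 5000 UMIs, which left out 2.52% to 11% of the cells of a group, Sirpa was below 1 in every pool of both genotypes, at 0.636 and 0.601. Cd47 was then at 0.648 in WT and 1.15 in AppSAA mice, Cd68 at 1.44 and 0.926, Scarb2 at 0.717 and 0.872, Cd36 at 2.05 and 3.15, and Msr1 at 1.7 and 1.71. Olr1 went to 0.885 and 1.22, with 2 and 3 of 4 pools above 1, Lrp1 to 1.03 and 0.855, and Cd14 to 0.975 and 0.988. These ratios are descriptions and were not tested.

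**Figure D3:**
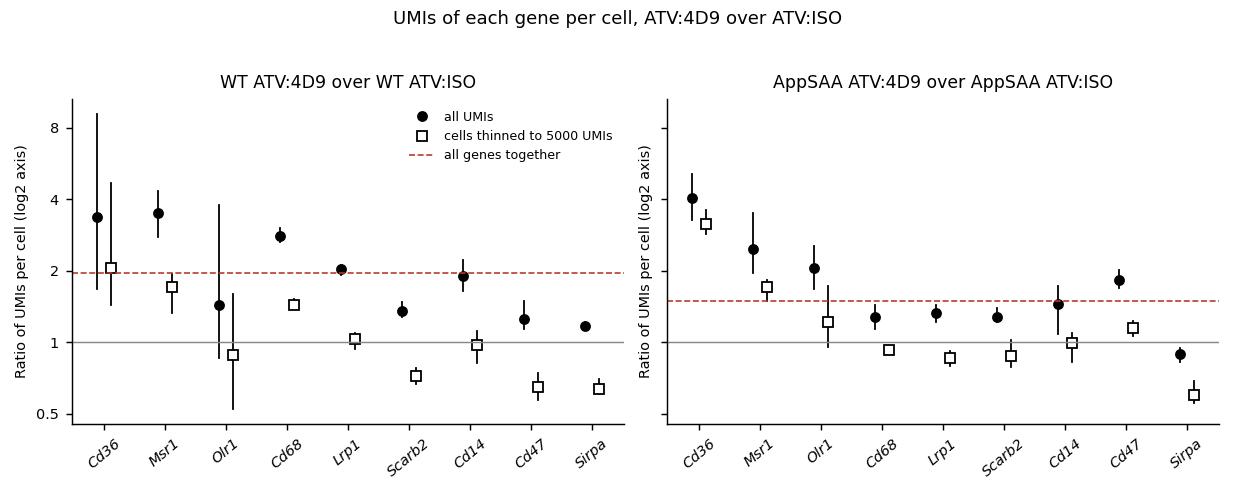
Ratio of mean UMIs per cell, ATV:4D9 over ATV:ISO (vertical axis, log2 scale), for each gene (horizontal axis) in WT (left) and AppSAA mice (right), from all UMIs (filled circles) and from cells thinned to 5000 UMIs (open squares). Lines run from the lowest to the highest of the 4 pools and the dashed line is the ratio of all UMIs, 1.95 and 1.49. In WT mice the circles of Scarb2, Cd47 and Sirpa lie above 1 and their squares below 1.

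The deposited annotation placed each cell in 1 of 6 clusters, numbered 0 to 5 without names. The clusters were made from expression, and whether the 9 genes were among the features used is not given in the sources used here, so levels by cluster are a description and no test was run between clusters. Clusters 0 and 3 held 60.4% and 35.8% of the cells in WT ATV:ISO and 3.11% and 4.56% in WT ATV:4D9, against 30.8% and 25.1% in AppSAA ATV:ISO and 2.52% and 3.78% in AppSAA ATV:4D9. Cluster 1 held 38.3% in AppSAA ATV:ISO, 13.5% in AppSAA ATV:4D9, 1.41% in WT ATV:ISO (2.52% in the highest mouse) and 0.383% in WT ATV:4D9. Shares given here for a group are means over its 4 mice. Clusters 2 and 4 held 47.8% and 40% of WT ATV:4D9 cells and 35.4% and 22.4% of AppSAA ATV:4D9 cells, and cluster 5 held 4.21% and 22.4%. A whole-mouse level mixes these shares with the level inside each cluster, and levels of 1 cluster were taken over mice with at least 20 cells in it.

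Levels over all groups pool mice whose cells fell into the clusters in different shares. Cd47 was 438.5 ± 52.5 CPM (SD, n = 17) in cluster 5 against 233.9 ± 28 (n = 20) in cluster 0, the next highest, and the difference within a mouse was 210.6 ± 53.2 in 17 of 17 mice. It was 205.0 in cluster 3 and 143.7 to 154.8 in clusters 1, 2 and 4, which did not differ beyond their spread. Sirpa was highest in cluster 0 at 764.4 ± 71.2 (n = 20), above cluster 3 at 638.7 in 20 of 20 mice. Its means in clusters 4 and 5 were 378.1 and 476.4, with cluster 5 the higher in 9 of 16 mice, and their order depended on the group. Cluster 5 lay above cluster 4 in AppSAA ATV:ISO (542.4 to 620.1 against 324.2 to 367.7) and AppSAA 4D9 (472.1 to 684.4 against 336.1 to 411.3), while the 2 overlapped in WT ATV:4D9 (355.7 to 428.9 against 403.9 to 462.3) and AppSAA ATV:4D9 (324.6 to 388.1 against 335.0 to 378.8). Scarb2 was likewise highest in cluster 0 (203.9 ± 18.7), above cluster 5 in 16 of 17 mice, and cluster 3 exceeded cluster 2 in 16 of 20. Its means in clusters 1, 2 and 4 (148.0, 148.3 and 137.5) did not differ beyond their spread over all groups, although cluster 1 lay above cluster 4 without overlap in AppSAA ATV:4D9.

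Cd68 was highest in cluster 1 at 1222 ± 160.8 CPM (n = 16), above cluster 2 at 994.3 in 15 of 16 mice, and lowest in clusters 0 and 3 at 675.3 ± 59.9 and 658.7 ± 68.9. Clusters 4 and 5 lay between at 976.8 and 781.6, with cluster 4 the higher in 16 of 16 mice. Cd14 was at 810.6 ± 140.0 in cluster 1, 749.5 ± 202.8 in cluster 2 and 698.0 ± 169.9 in cluster 3 over all groups, and at 362.5 ± 32.4 in cluster 0. These pooled values held opposite orders of clusters 2 and 3. Cluster 2 lay above cluster 3 in AppSAA ATV:ISO (733.6 to 993.6 against 541.0 to 650.9 CPM) and AppSAA 4D9 (768.9 to 985.9 against 542.2 to 680.6), and below it in WT ATV:4D9 (475.3 to 576.0 against 722.3 to 922.4) and AppSAA ATV:4D9 (497.7 to 733.5 against 786.0 to 1134). In WT ATV:ISO the 2 clusters overlapped. Cd36 averaged 0.783 and 0.9 CPM in clusters 0 and 3 and 4.89 to 6.56 in clusters 2, 4 and 5, cluster 5 exceeding cluster 3 by 3.92 ± 2.96 over all groups, with the higher value in 15 of 17 mice. By group, clusters 5 and 3 were set apart in WT ATV:4D9 (4.42 to 6.04 against 0.489 to 2.97) and AppSAA ATV:4D9 (6.35 to 8.86 against 0.485 to 1.41) and overlapped in AppSAA ATV:ISO (0 to 4.29 against 0.539 to 0.864) and AppSAA 4D9 (0 to 10.3 against 0 to 1.3). Cluster 4 lay below cluster 5 in WT ATV:4D9 (1.82 to 2.93) and overlapped it in the 3 AppSAA groups. Its mean in cluster 1 was 5.81 ± 11.8 (n = 16) with WT ATV:ISO replicate 2, which stood at 49.6, and 2.9 ± 1.69 (n = 15) without it. Summed monocyte markers in cluster 5 were 30.4 to 38.7 CPM in WT ATV:4D9 and 26.3 to 32.6 in AppSAA ATV:4D9. In cluster 3 of these groups they were 2.97 to 4.85 and 1.35 to 5.33. Cluster 5 had 4.81 to 46.6 in AppSAA ATV:ISO and 15.5 to 44.9 in AppSAA 4D9. Msr1 ran from 1.81 to 7.38, Olr1 from 0.618 to 4.04 and Lrp1 from 249.8 to 364.3 CPM over the clusters, and over all groups no neighbours in these orders differed beyond their spread. Within single groups of 3 or more mice, neighbours were set apart without overlap in 3 of 20 cases for Msr1, 2 of 19 for Olr1 and 1 of 20 for Lrp1. Without the highest mouse, each time of WT ATV:ISO, the Olr1 means of clusters 1 and 5 went from 3.53 to 2 (replicate 2, at 26.5) and from 4.03 to 1.25 (replicate 4, at 48.4). In cluster 2, Msr1 and Cd36 means were lower with ATV:4D9 than with ATV:ISO, and neither gene was called for that comparison there. Msr1 was 4.74 ± 0.934 against 10.8 ± 8.17 in WT and 5.57 ± 1.13 against 10.3 ± 2.26 in AppSAA mice. Cd36 was 2.37 ± 0.302 against 8.92 ± 7.81 and 6.48 ± 1.21 against 9.84 ± 7.47. Of these pairs only the AppSAA groups for Msr1 did not overlap. In the other clusters these means went either way.

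**Figure D4:**
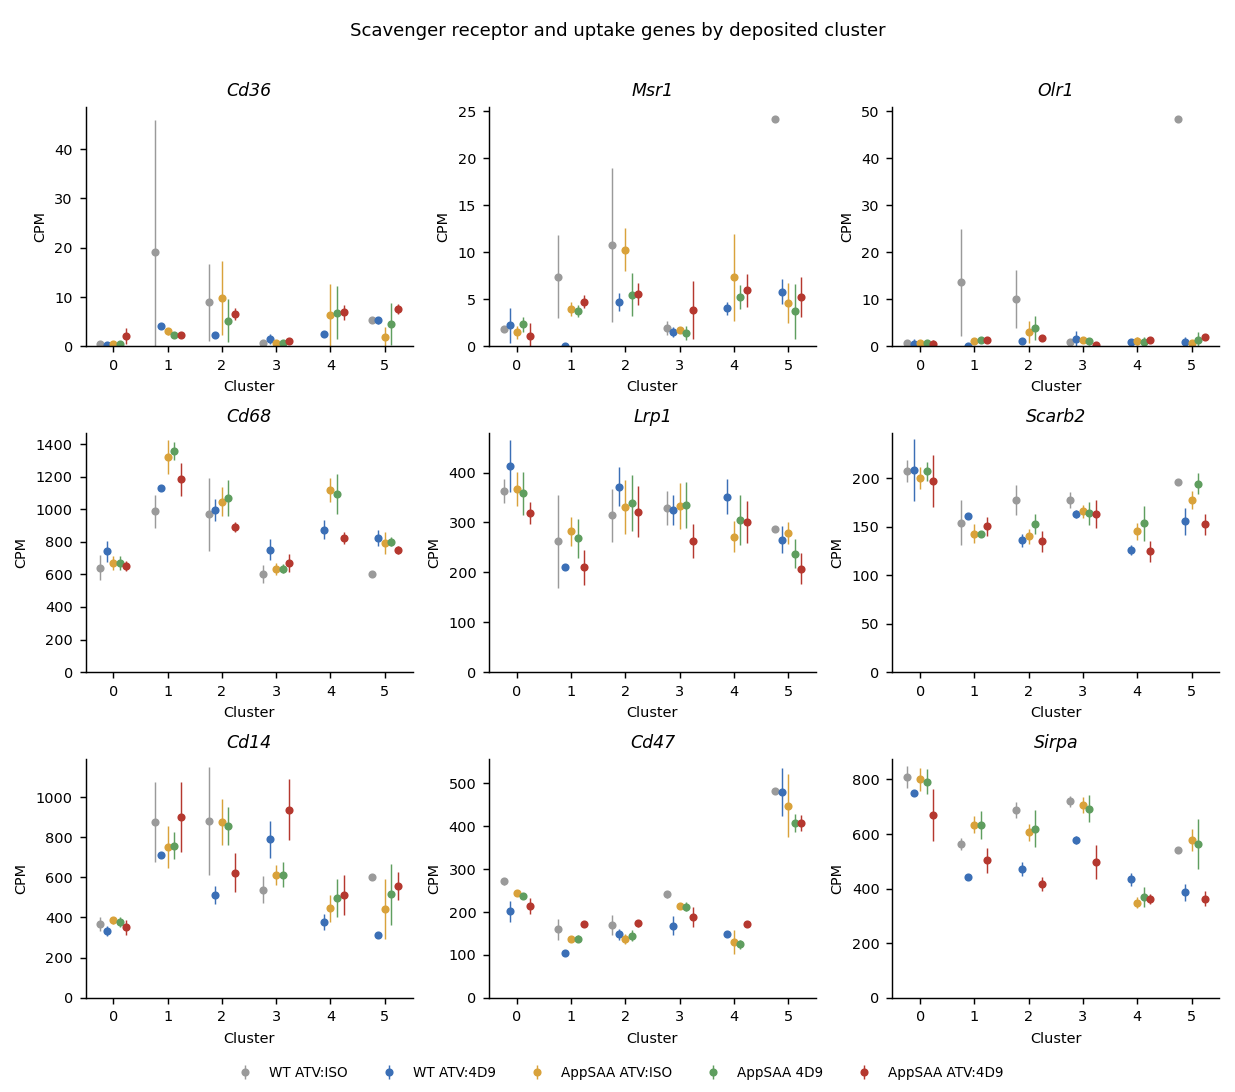
CPM of each gene (vertical axes, each from 0) in the 6 deposited clusters (horizontal axes), as the mean (points) and SD (bars) over the mice of a group with at least 20 cells in the cluster; a point without a bar is a single mouse or an SD smaller than the point. Cd47 is highest in cluster 5 in every group shown, and the raised Cd36 and Olr1 means in cluster 1 belong to WT ATV:ISO, with 3 mice.

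Within clusters, groups were compared on UMIs summed per mouse and cluster, in 24 comparisons that had at least 3 such sums a group, which made 200 tests of the 9 genes. Cells were placed in clusters by their expression after the dose. Cluster 2 held 1.04% to 1.6% of the cells of WT ATV:ISO mice and 44.7% to 51.7% of those of WT ATV:4D9 mice. These tests cannot tell a change within a state from a change in which cells a cluster holds. There were 23 calls, where 4.02% of the tests of all genes were called, 42 with the pool as a replicate block, where 8.17% were. When sums needed at least 50 cells, 16 of the comparisons and 135 tests remained, with 15 calls (3.95% over all genes), and the same comparisons held 15 with sums of 20 cells or more (3.97%). They shared 14 of these, since Cd14 for AppSAA against WT under ATV:4D9 in cluster 4 was lost (adjusted p = 0.0991) and Cd14 for ATV:4D9 in AppSAA cluster 2 was gained (-0.43, adjusted p = 0.0355, against 0.0808). The other 8 of the 23 calls, all 4 in WT cluster 2, both for AppSAA under ATV:ISO in cluster 1 and both for ATV:4D9 in AppSAA cluster 4, could not be tested on such sums. The block kept all 23 and added 19, whose values follow cluster by cluster. In cluster 0, which held most WT ATV:ISO cells, 0 of 7 genes tested were called for ATV:4D9 in WT mice (1.47% of all genes called), AppSAA under ATV:ISO (0.274%), ATV:4D9 in AppSAA mice (0.667%), 4D9 (0%) or AppSAA under ATV:4D9 (0.154%). With the block, 5 calls were made there, on 4 genes. In WT mice given ATV:4D9 they were Cd68 at 0.26 (adjusted p = 0.000325), Lrp1 at 0.22 (0.00233) and Cd47 at -0.35 (8.54e-05), with 8.96% of all genes called. Sirpa was called in AppSAA mice given ATV:4D9 (-0.24, adjusted p = 0.00414, against 0.364 without the block), with 5.27% of all genes called, and Lrp1 for AppSAA against WT under ATV:4D9 (-0.32, adjusted p = 0.00137), with 1.86%. 4D9 against ATV:ISO called none of the 9 genes in any cluster with or without the block, where without it 0% of all genes were called in each of clusters 1 to 5. AppSAA against WT under ATV:ISO called 0 of 9 in cluster 2 (0.281% of all genes) and in cluster 3 (0.189%), and AppSAA against WT under ATV:4D9 called 0 of 9 in cluster 3 (0.163%), where the block called Lrp1 (-0.26, adjusted p = 0.0324, with 1.7% of all genes).

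ATV:4D9 against ATV:ISO in WT mice called 4 of 9 genes in cluster 2 (5.88% of all genes) and 3 of 9 in cluster 3 (6.17%). In cluster 2, where the WT ATV:ISO sums held 23 to 42 cells, Sirpa was at 464 ± 22.1 against 668 ± 19.2 normalised CPM (-0.53 log2 units, adjusted p = 0.000452) and Cd14 at 503 ± 47.9 against 856 ± 277 (-0.75, adjusted p = 0.00874, and -0.58, adjusted p = 0.054, without WT ATV:ISO replicate 2). Scarb2 fell by 0.37 (adjusted p = 0.0265), a call lost without WT ATV:ISO replicate 1 or 2 or WT ATV:4D9 replicate 3 or 4 (adjusted p 0.065 to 0.0911), without a filter on low counts (0.251) and without cells with markers of another type (0.0565). Olr1 was called at -2.97 (adjusted p = 0.00158) on 2 to 6 UMIs in each WT ATV:ISO sum. In these cluster 2 sums endothelial and mural markers were 14.2 to 22.3 CPM in WT ATV:ISO and 8.06 to 11.2 in WT ATV:4D9. Astrocyte markers were 4.45 to 7.91 and 1.61 to 4.13. Without cells with markers of another type Sirpa was at -0.6 (adjusted p = 0.000823), Cd14 at -0.76 (0.011) and Olr1 at -2.7 (0.0449). In cluster 3, Cd14 was at 809 ± 83.8 against 518 ± 79.3 (0.64, adjusted p = 0.00255), so that it fell with ATV:4D9 in cluster 2 and rose in cluster 3, beside 0.06 and no call in whole WT mice. Cluster 3 also had Cd47 at 173 ± 26.6 against 232 ± 5.74 (-0.41, adjusted p = 0.00952) and Cd68 at 773 ± 85.8 against 580 ± 70 (0.42, adjusted p = 0.0129). The Cd68 call was lost without WT ATV:ISO replicate 3 or 4 or WT ATV:4D9 replicate 1 (adjusted p 0.053 to 0.0666). The block added Lrp1 in cluster 2 (0.26, adjusted p = 0.0395, with 11% of all genes called) and Sirpa in cluster 3 (-0.22, adjusted p = 0.00399, with 17.5%).

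In AppSAA mice the same comparison called 1 of 9 genes in cluster 1 (1.51% of all genes), 2 of 9 in cluster 2 (13.2%), 2 of 9 in cluster 3 (4.33%), 2 of 8 in cluster 4 (24.5%) and 3 of 8 in cluster 5 (29.7%). Cd47 rose in 3 of them, from 137 ± 9.23 to 177 ± 11.6 normalised CPM in cluster 1 (0.37, adjusted p = 0.0238), from 138 ± 16.2 to 180 ± 11.6 in cluster 2 (0.39, adjusted p = 0.0108) and from 132 ± 26 to 174 ± 6.17 in cluster 4 (0.38, adjusted p = 0.0225). The first was lost without AppSAA ATV:ISO replicate 2, 3 or 4 or AppSAA ATV:4D9 replicate 1 (adjusted p 0.0796 to 0.0997) and without a filter on low counts (0.0593). The second was lost without AppSAA ATV:ISO replicate 3 (0.0637), and the third without AppSAA ATV:ISO replicate 2 (0.0906, log2 fold change 0.26) or AppSAA ATV:4D9 replicate 3 (0.0613). In clusters 0, 3 and 5 Cd47 was not called, and its mean CPM over all UMIs was lower with ATV:4D9. It was 214.1 against 243.7 in cluster 0, 188.7 against 214.1 in cluster 3 and 407.7 against 448.2 in cluster 5. Sirpa fell by 0.49 in cluster 2 (433 ± 11.7 against 609 ± 14, adjusted p = 0.000222), by 0.38 in cluster 3 (527 ± 46.4 against 688 ± 14.4, adjusted p = 0.00335) and by 0.57 in cluster 5 (379 ± 15.1 against 562 ± 41.7, adjusted p = 0.000318). Cd14 again rose in cluster 3, from 599 ± 56.9 to 999 ± 202 (0.73, adjusted p = 0.00105), and Cd68 fell in cluster 4, from 1141 ± 82.4 to 837 ± 82.6 (-0.44, adjusted p = 0.0031). In cluster 4 summed border macrophage markers were 53.3 to 226.0 CPM in AppSAA ATV:ISO and 16.8 to 67.2 in AppSAA ATV:4D9, and without cells that held 2 or more markers of another type Cd68 was at -0.43 (adjusted p = 0.00378). In cluster 5 Cd36 rose by 1.52 (adjusted p = 0.00416), on 0 to 13 UMIs in the AppSAA ATV:ISO sums, and by 2.33 without AppSAA ATV:ISO replicate 3. There summed endothelial and mural markers were 31.8 to 70.6 CPM in AppSAA ATV:ISO and 21 to 30 in AppSAA ATV:4D9, and without cells with markers of another type the Cd36 rise was 1.90 (adjusted p = 0.0029). Lrp1 fell there by 0.33 (adjusted p = 0.0262), which was lost without AppSAA ATV:ISO replicate 3 or 4 or AppSAA ATV:4D9 replicate 1 or 2 (adjusted p 0.0725 to 0.105) and without a filter on low counts (0.161). The block added Lrp1 (-0.38, adjusted p = 0.0169) and Sirpa (-0.28, 0.00514) in cluster 1, where it called 7.77% of all genes, and Cd14 in cluster 2 (-0.44, 0.0379), where it called 24.8%. In cluster 3, with 12.6% of all genes called, it added Cd68 (0.20, adjusted p = 0.00831) and Lrp1 (-0.21, 0.0206).

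Under ATV:4D9, AppSAA against WT called 1 of 9 genes in cluster 2 (2.07% of all genes), 2 of 8 in cluster 4 (2.76%) and 1 of 8 in cluster 5 (6.87%). Cd36 was higher in the AppSAA mice in cluster 2, at 6.76 ± 1.62 against 2.32 ± 0.24 normalised CPM (1.55, adjusted p = 0.000635), and in cluster 4, at 6.99 ± 1.7 against 2.33 ± 0.464 (1.57, adjusted p = 0.000334). Each rested on 47 to 280 UMIs a sum, and the groups did not overlap in either cluster. In cluster 4 summed border macrophage markers were 16.8 to 67.2 CPM in AppSAA ATV:4D9 and 10.5 to 36.2 in WT ATV:4D9, and in cluster 2 they were 10.9 to 22 and 12.4 to 29.7. Summed monocyte markers were 6.06 to 10.3 against 4.28 to 6.35 CPM in cluster 2 and 4.13 to 7.09 against 3.8 to 5.21 in cluster 4, and those of endothelial and mural cells 8.84 to 14.2 against 8.06 to 11.2 and 8.06 to 14.2 against 9.25 to 13.8. Without cells with markers of another type the Cd36 differences were 1.61 (adjusted p = 0.00118) in cluster 2 and 1.68 (adjusted p = 0.000231) in cluster 4. Cd14 was higher in cluster 5, at 582 ± 88.9 against 309 ± 15.8 (0.91, adjusted p = 0.00265). There summed microglial markers were 12140 to 13846 CPM in AppSAA ATV:4D9 and 13951 to 16107 in WT ATV:4D9. Border macrophage markers were 21.2 to 37.3 and 13.4 to 27, and those of endothelial and mural cells 21 to 30 and 9.11 to 21.8. Without cells with markers of another type the Cd14 difference in cluster 5 was 0.95 (adjusted p = 0.00192). In cluster 4 Cd14 was at 0.54 with an adjusted p of 0.0499, which was lost in 13 of the fits without 1 mouse (adjusted p 0.0552 to 0.263), with RLE factors (0.0515), with sums of at least 50 cells (0.0991) and without cells with markers of another type (0.143). The block added Olr1 (0.73, adjusted p = 0.0375) and Cd47 (0.31, 0.00351) in cluster 2, where it called 7.38% of all genes, Msr1 (0.67, 0.00559) and Cd47 (0.29, 0.0192) in cluster 4, where it called 9.79%, and Lrp1 in cluster 5 (-0.28, 0.0057), where it called 15.8%.

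AppSAA against WT under ATV:ISO called 2 of 9 genes in cluster 1 (1.21% of all genes), Cd36 at -3.00 (adjusted p = 0.00533) and Olr1 at -3.62 (adjusted p = 0.00125). Both calls depend on WT ATV:ISO replicate 2, whose 62 cells in that cluster held 43 Cd36 and 23 Olr1 UMIs, 11 of the latter in 1 cell. The other 2 WT sums, of 27 and 31 cells, held 4 and 0 Cd36 UMIs and 3 Olr1 UMIs each. For Olr1 all 3 WT ATV:ISO sums still lay above the AppSAA ATV:ISO sums (5.92 to 26.5 against 1.08 to 1.47 CPM). Without replicate 2 the log2 fold changes were -0.45 for Cd36 (adjusted p = 0.884) and -2.32 for Olr1 (adjusted p = 0.229). Limma voom did not call Cd36 (-1.74, adjusted p = 0.195). The block also called Cd68 in cluster 1 (0.45, adjusted p = 0.026, with 2.68% of all genes called). Border macrophage markers in these sums were 41.4 to 70.3 CPM in WT ATV:ISO and 17.2 to 35.5 in AppSAA ATV:ISO. Endothelial and mural markers were 38.6 to 115.3 and 56.1 to 80.1 CPM. Without cells with markers of another type the values were -3.28 for Cd36 (adjusted p = 0.00169) and -3.93 for Olr1 (adjusted p = 0.000211).

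**Figure D5:**
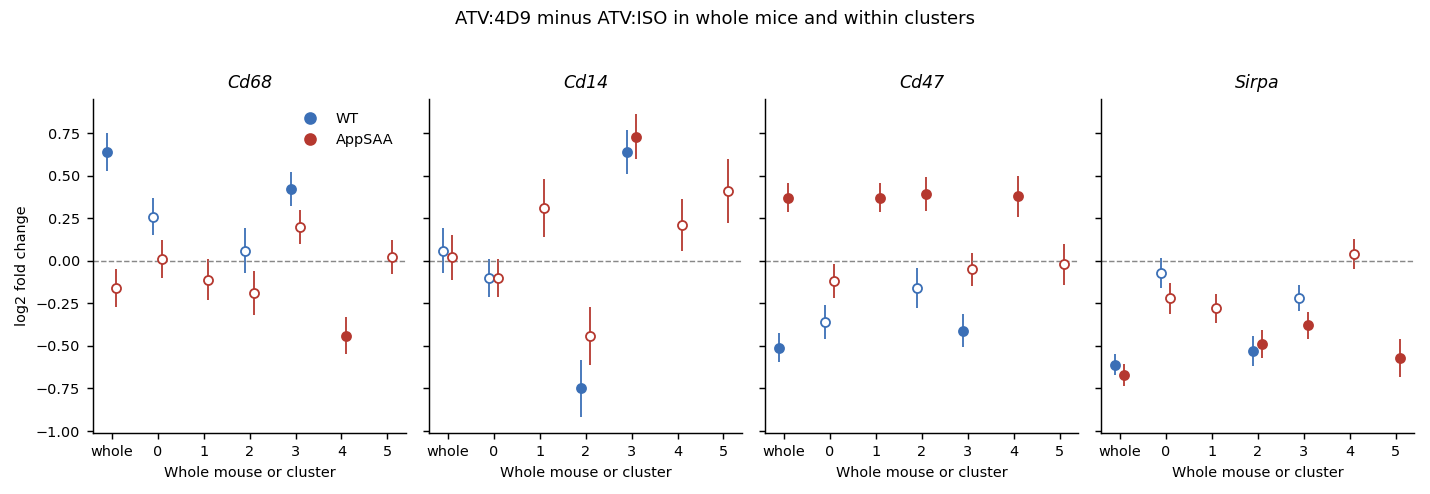
Log2 fold change of ATV:4D9 against ATV:ISO (vertical axes), with the SE as bars, for Cd68, Cd14, Cd47 and Sirpa in whole mice and in each cluster where it was tested (horizontal axes), in WT (blue) and AppSAA mice (red); filled points passed an adjusted p of 0.05. Cd14 is filled only in clusters 2 and 3, below 0 in WT cluster 2 and above 0 in cluster 3 in both genotypes, while whole mice lie near 0.

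Other genes of uptake were taken from 7 lists drawn up by role, of which 79 genes were tested, and the count called was 52 for ATV:4D9 in WT mice, 41 in AppSAA mice and 35 for AppSAA under ATV:ISO. Of all genes tested, 63.3%, 55.1% and 28.2% were called in these comparisons, so the counts for ATV:4D9 lay near the background. Among 8 other scavenger receptors tested, ATV:4D9 raised 2 and lowered 1 in WT mice and raised 1 and lowered 1 in AppSAA mice. Cxcl16, a receptor for oxidised lipoprotein whose cut form is a chemokine, rose from 85.48 to 330.2 normalised CPM in WT mice (1.95 log2 units, adjusted p = 2.09e-11) and from 136.4 to 550.4 in AppSAA mice (2.01, adjusted p = 1.97e-11). Of 14 co-receptors and kinases of Cd14 and Cd36, 4 rose and 7 fell in WT mice and 4 rose and 5 fell in AppSAA mice. Tlr2, a Toll-like receptor that works with both, rose by 1.47 and 1.38, while Ly96, the Tlr4 partner for lipopolysaccharide, fell by 0.88 and the kinase Src by 0.93 in WT mice. Among 8 lipoprotein receptors and partners of Lrp1, 4 rose and 3 fell in WT mice and 2 rose and 4 fell in AppSAA mice. Calr, the chaperone calreticulin that acts with Lrp1 in engulfment, rose by 1.40 and 1.03, and Sorl1, a sorting receptor, fell by 0.87 in WT mice.

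Of 13 engulfment receptors and bridging proteins, ATV:4D9 raised 3 and lowered 4 in WT mice and raised 1 and lowered 6 in AppSAA mice, among them Itgax (-0.72), the CD11c integrin chain, Mfge8 (-0.65), a protein that bridges dying cells to integrins, and Itgb3 (-0.70), a chain of an integrin that binds it. The 6 tested genes of Sirpa and Cd47 signalling gave 3 higher and 3 lower in WT mice and 2 higher in AppSAA mice. Actin and engulfment machinery gave 5 higher and 5 lower of 19 in WT mice and 6 and 2 in AppSAA mice, and phagosome and lysosome membrane genes 5 and 3 of 11 in WT mice and 2 and 5 in AppSAA mice. ATV:4D9 against 4D9 named the same 6 genes as against ATV:ISO in AppSAA mice, with Cxcl16 at 2.07, Tlr2 at 1.35, Calr at 0.93, Itgax at -0.77, Itgb3 at -0.71 and Mfge8 at -0.66. It called 2 of 8 other scavenger receptors, 7 of 13 engulfment receptors, 7 of 8 lipoprotein receptors and partners, 8 of 14 co-receptors and kinases, 2 of 6 genes of Sirpa and Cd47 signalling, 9 of 19 actin and engulfment genes and 8 of 11 phagosome and lysosome genes. Over all lists these were 43 of 79, where 54.3% of all genes were called. 4D9 against ATV:ISO called 0 in every list.

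AppSAA against WT under ATV:ISO raised 5 of 13 engulfment receptors and lowered 0, with Itgax rising from 18.66 to 161.4 normalised CPM (3.11, adjusted p = 3.5e-10) and the receptor tyrosine kinase Axl from 15.45 to 102.2 (2.72, adjusted p = 4.88e-11). It raised 7 of 11 phagosome and lysosome genes and lowered 0, raised 3 and lowered 1 of 8 other scavenger receptors (Stab1, stabilin, at -0.84), and raised 3 and lowered 1 of 8 lipoprotein receptors and partners (Lrpap1, the chaperone of Lrp1, at 1.19). Of the co-receptors and kinases 4 rose and 6 fell (Tlr4 at -0.57), of the actin and engulfment genes 1 rose and 4 fell (Elmo1, an engulfment adaptor of Rac, at -0.62), and of the 6 genes of Sirpa and Cd47 signalling 0 were called. Of all genes tested 28.2% were called in this comparison, 2028 higher and 1932 lower. These directions were taken with TMM factors. Under total-count scaling the share of higher genes among all called went from 51.2% to 22.3%. Under ATV:4D9 the genotype comparison raised 3 engulfment receptors, 2 other scavenger receptors, 3 lipoprotein receptors and partners, 3 co-receptors and kinases, 2 genes of Sirpa and Cd47 signalling and 3 phagosome and lysosome genes, and lowered 1 co-receptor or kinase and 2 actin and engulfment genes. These were 19 of 79 genes, where 11.8% of all genes were called. The share of higher genes among all called went from 66.3% to 26.5% there under total-count scaling. Axl was at 2.16, Itgax at 1.33 and Cxcl16 at 0.74, while Tirap (-0.33), Elmo1 (-0.33) and Dock1 (-0.31) lost their calls in 5, 13 and 5 of the 20 fits without 1 mouse. The interaction called 17 of 79, where 9.14% of all genes were called, among them Sorl1 (0.86), Myd88 (0.80), Src (0.71), Itgax (-1.78), the HDL receptor Scarb1 (-1.13) and the tetraspanin Cd63 (-0.77). With the pool block the counts over all lists were 53 for AppSAA under ATV:ISO, 37 for AppSAA under ATV:4D9 and 40 for the interaction, where that fit called 51%, 31.4% and 30.5% of all genes. Medians of the 9 genes were 0.06 log2 units for ATV:4D9 in WT mice, 0.02 in AppSAA mice and 0.04 for AppSAA under ATV:ISO, beside -0.05, -0.03 and -0.06 over all genes tested.

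For each of the 9 genes, the genes whose log2 CPM ran most alike over the 20 mice were found among the 8027 or 8028 other genes that averaged 10 CPM or more. Sirpa was most like Slc17a5 (Pearson's r 0.985), Tbc1d12 (0.978) and Rnase4 (0.978), and Cd68 most like Trappc6a (0.975), Syngr1 (0.969) and Gpi1 (0.964). The closest genes were Fam167b (0.957), Rnase6 (0.954) and Tnfsf12 (0.949) for Scarb2, Glipr1 (0.954), Elp5 (0.951) and Bcl2a1a (0.949) for Msr1, and Slc11a1 (0.938), Nab2 (0.933) and Srgn (0.933) for Cd14. They were Mmgt1 (0.919), Abi2 (0.86) and Alg10b (0.846) for Lrp1, Pttg1 (0.911), Tapbpl (0.909) and Rnf34 (0.905) for Cd47, and Sp100 (0.898), Ifi207 (0.892) and Ass1 (0.89) for Cd36. Olr1 had the weakest matches, with Tnip1 at 0.732, Plaat3 at 0.639 and Casp1 at 0.628. Bcl2a1a has near-identical copies whose reads may be split between them. These are descriptions over mice that fall into 5 groups and differ in depth between them, with no test.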

How the data were processed

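Brain cells of 20 mice were profiled by single-cell RNA-seq with CellPlex tags in 4 pools. According to the methods, the authors used Cell Ranger 6.1.1 with mm10, and Seurat for integration and clustering. The deposited matrix holds raw UMI counts per gene and cell, and the deposited cell annotation gives the mouse, group, pool, recorded sex, UMI total and cluster of each cell, with the mitochondrial percent that the authors computed (not used). The counts of each cell summed to its deposited total in all 74758 cells, the number the paper states, and every cell was kept. No doublet caller was run, and whether doublets were removed earlier is not given in the sources used here, so cells over 25000 UMIs (9.55%) were left out in an alternative.

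Sums of UMIs were formed for each mouse, and for each cluster of a mouse with 20 cells or more. All groups entered 1 fit in edgeR 4.0.16 (R 4.3.3) with filterByExpr, TMM normalisation, and the quasi-likelihood test, adjusted by Benjamini-Hochberg across the genes tested, with calls at 0.05. Normalised CPM uses the TMM factors, the scale of the fold changes, although CPM over all UMIs had been planned. Levels by cluster are CPM over all UMIs of the sum. Tests within a cluster used a separate fit, with TMM factors of that cluster. 95% intervals come from the SE and the residual degrees of freedom. The scripts were tested on simulated data.

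The pool pairs the mice according to the annotation, since each pool held 1 mouse of every group. In 40 of 40 pairs of mice from 1 pool, deviations from the group means were positively correlated (r 0.143 to 0.607). The fit without the pool is the one reported, and the pool as a replicate block is an alternative. The other alternatives were RLE factors, no filter on low counts, DESeq2 1.42.0, limma 3.58.1 voom (the study's method), cell filters, thinning, and leaving out each mouse in turn. Total-count scaling, CPM without TMM factors, the cell filter within clusters and the alternatives for the lists were chosen after seeing the data.

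The 9 genes and the lists were chosen with earlier results of these data known. Named list genes are, for each comparison, those called that averaged 10 CPM or more, up to 3 with the strongest rise and 3 with the strongest fall. Loci are from GENCODE on GRCm38. The 9 genes gave 9 to 85122 UMIs a mouse, and the SD over mice holds both counting error and the spread between animals.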

Additional observations from a re-analysis of the deposited data

Results flagged for a closer look

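The ATV:4D9 effect differed between WT and AppSAA mice for 2 of the 9 genes by the test of the difference itself. Of all genes tested 9.14% were called by that test, or 30.5% with the pool as a replicate block. For Cd68 the difference was -0.80 log2 units (SE 0.15, adjusted p = 0.00164, edgeR), with 0.64 in WT and -0.16 in AppSAA mice. For Cd47 it was 0.88 (SE 0.12, adjusted p = 8.65e-05), with -0.51 in WT and 0.37 in AppSAA mice. Both kept their sign in 4 of 4 pools. These values are relative to other RNA. With all cells, UMIs per cell rose in WT and AppSAA mice for Cd68 (ratios 2.81 and 1.27) and for Cd47 (ratios 1.25 and 1.83). Without cells over 25000 UMIs the WT ratio of Cd47 was 1.11, with overlapping groups. 1 mouse stood apart in its group, AppSAA ATV:ISO replicate 1, with 174.0 normalised CPM of Scarb2 where the others had 159.5 to 161.2. Its gap to the nearest mouse was 0.882 of the range of the group, above the 95% critical value of Dixon's test for 4 mice. Of 45 groups tested in this way 1 passed, and chance passes about 1 in 20.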

How the results depend on the processing

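Limits come first. The 4 mice a group bound the precision of every test, and Cd36, Msr1 and Olr1 had at most 631 UMIs in a mouse. Fold changes are relative to all RNA, whose amount per cell differed with ATV:4D9. Leaving out 1 mouse at a time, AppSAA against WT under ATV:ISO called 3 to 5 genes, with 5 for all mice, and 3192 to 4337 of all genes, with 3960 for all mice (3310 to 3549 in the fits with 3). The pool as a replicate block gave more calls over all genes too, 70.7% for ATV:4D9 against ATV:ISO in AppSAA mice, 51% for AppSAA under ATV:ISO, 31.4% for AppSAA under ATV:4D9, 30.5% for the interaction and 8.17% within clusters (55.1%, 28.2%, 11.8%, 9.14% and 4.02% without it). For the 9 genes it gave 8 calls for ATV:4D9 against ATV:ISO in AppSAA mice (4 without it), 7 for AppSAA against WT under ATV:4D9 (4), 4 for the interaction (2, and 4 in DESeq2), 42 within clusters (23) and 53, 37 and 40 over the lists for AppSAA under ATV:ISO (35), AppSAA under ATV:4D9 (19) and the interaction (17). In whole mice it changed no call of the 9 genes beyond those given beside the results, and within clusters it kept all 23. Sums of at least 50 cells left 135 of the 200 tests within clusters and gave 15 calls, with 3.95% over all genes, as many as these comparisons held with all sums (15, with 3.97%), though Cd14 was lost in 1 comparison and gained in another. Ratios of UMIs per cell moved with thinning to 3.15 for Cd36 (AppSAA), 1.7 and 1.71 for Msr1 (WT, AppSAA), 1.22 for Olr1 (AppSAA), 1.44 and 0.926 for Cd68, 1.03 and 0.855 for Lrp1, 0.717 and 0.872 for Scarb2, 0.975 and 0.988 for Cd14, 0.648 and 1.15 for Cd47 and 0.636 and 0.601 for Sirpa. Without cells over 25000 UMIs they moved to 1.56 for Olr1 (AppSAA), 2.5 for Cd68 (WT), 1.76 and 1.14 for Lrp1, 1.21 and 1.16 for Scarb2, 1.59 for Cd47 (AppSAA) and 1.07 and 0.824 for Sirpa. CPM over all UMIs, without TMM factors, moved the WT ATV:ISO means of Msr1, Lrp1, Scarb2, Cd47 and Sirpa to 2.47, 343.5, 192.8, 255.8 and 757.9 and the AppSAA ATV:4D9 means of Scarb2 and Sirpa to 138.7 and 406.2. Total-count scaling shifted the median of all genes by -0.12 for ATV:4D9 in WT mice, -0.18 for AppSAA under ATV:ISO and -0.14 for AppSAA under ATV:4D9. The share of higher genes among all called went from 48.7% to 40.9%, from 51.2% to 22.3% and from 66.3% to 26.5%. It reversed Cd14 (-0.05) for ATV:4D9 in WT and in AppSAA mice (-0.05), Lrp1 (-0.14) and Sirpa (-0.17) for AppSAA under ATV:ISO, and Cd68 (-0.09) for AppSAA under ATV:4D9. Without cells over 25000 UMIs Olr1 reversed for AppSAA under ATV:ISO (0.04) and for 4D9 (-0.06), and Cd14 for ATV:4D9 against 4D9 (0.00), as it did without a filter on low counts (0.01). Limma voom reversed Olr1 for 4D9 (-0.01). None of these values but that of Sirpa was called, and the cause was not tested. Signs also turned when 1 mouse was left out, in values never called with all mice. For 4D9 the ranges were -0.03 to 0.10 for Cd14, -0.05 to 0.02 for Cd47, -0.01 to 0.10 for Cd68, -0.06 to 0.02 for Lrp1, -0.09 to 0.19 for Olr1, 0.00 to 0.06 for Scarb2 and -0.03 to 0.03 for Sirpa. For Cd14 they were -0.13 to 0.09 for ATV:4D9 against 4D9, -0.10 to 0.12 and 0.00 to 0.16 for ATV:4D9 in AppSAA and WT mice, and -0.16 to 0.06 for the interaction. For Cd68 under ATV:4D9 between genotypes the range was -0.01 to 0.13, for the Msr1 interaction -0.35 to 0.02, and under ATV:ISO between genotypes -0.37 to 0.09 for Olr1 and 0.00 to 0.05 for Sirpa.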
